A study of Mus musculus with 15 samples.

Results

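The genes described are 10 integrin subunits, 6 alpha chains (Itga1, Itga2, Itga3, Itga5, Itga6 and Itgav) and 4 beta chains (Itgb1, Itgb3, Itgb4 and Itgb5). They were chosen by name, as the rows that carry these gene symbols, and are 10 of 14615 symbols in the table. All 10 passed the filter on low values and were tested among 14532 genes, Itgb4 only through its level in whole body. RNA-seq libraries came from wild type C57BL/6NTac mouse embryos: lens dissected at 4 stages 2 days apart, the earliest E10.5 and the latest E16.5 (E stands for embryonic day), and whole embryo, called whole body here, labelled E10.5 to E12.5. Each of these 5 groups had 3 libraries, described as biological replicates, and the number of lenses pooled into a lens library fell with age from 50 to 29, 18 and 17. How whole embryos of different days entered 1 library is not stated, so the comparisons of E14.5 and E16.5 lens with whole body differ in age as well as in tissue.

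Integrins are cell surface receptors made of 1 alpha and 1 beta chain that bind extracellular matrix outside the cell and the cytoskeleton, through adaptor proteins, inside it. The pairing decides the ligand: chains such as alpha6 and alpha3 with beta1 bind laminin, alpha1 and alpha2 with beta1 bind collagen, and alpha5beta1 and the alphav receptors bind fibronectin, vitronectin and related ligands through the RGD motif. The lens is an epithelium wrapped in its own basement membrane, the lens capsule, on which epithelial and fibre cells attach and move.

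Values are FPKM (fragments scaled for transcript length and library size), summed over the transcripts of a gene. The number of reads behind them is unknown, so the precision that depth gives cannot be stated. Log2 fold changes are given ± SE on log2(FPKM + 1), a scale that understates changes of low genes, with Benjamini-Hochberg adjusted p-values from limma over all genes. A gene is said to rise, fall, or be higher or lower only where this adjusted p was under 0.05. Of 11 lens fibre markers tested, 8 were higher than whole body at E10.5 and all 11 at E14.5 and E16.5, and crystallins grew from at most 0.07% of the summed FPKM at E10.5 to between 28.24% and 37.33% at E16.5. Marker genes of neighbouring tissues were also present. Mesenchyme markers set E10.5 replicate 3 and E12.5 replicate 1 apart from their groups, the latter together with markers of other tissues. Results on Itga1, Itga5 and Itgb3 are therefore also given without these 2 libraries. In bulk tissue, fewer cells of a type and less RNA per cell cannot be told apart.

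Integrin RNA changed its makeup between E10.5 and E12.5. Itga6 and Itga2 rose, Itga3 fell from a mean of 152.03 to 39.3 FPKM, and Itgb1, Itgav and Itgb5 rose with smaller steps. Itga5 fell through E14.5, Itgb3 nearly disappeared at E14.5, and Itgb4 was close to 0 in every lens library. At E16.5 the subunits with the most RNA in the lens were Itgb1, Itga6 and Itgb5, at means of 582.66, 429.55 and 325.84 FPKM. Itgav, Itga2 and Itga3 followed at 98.05, 74.64 and 61.07.

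**Figure D1:**
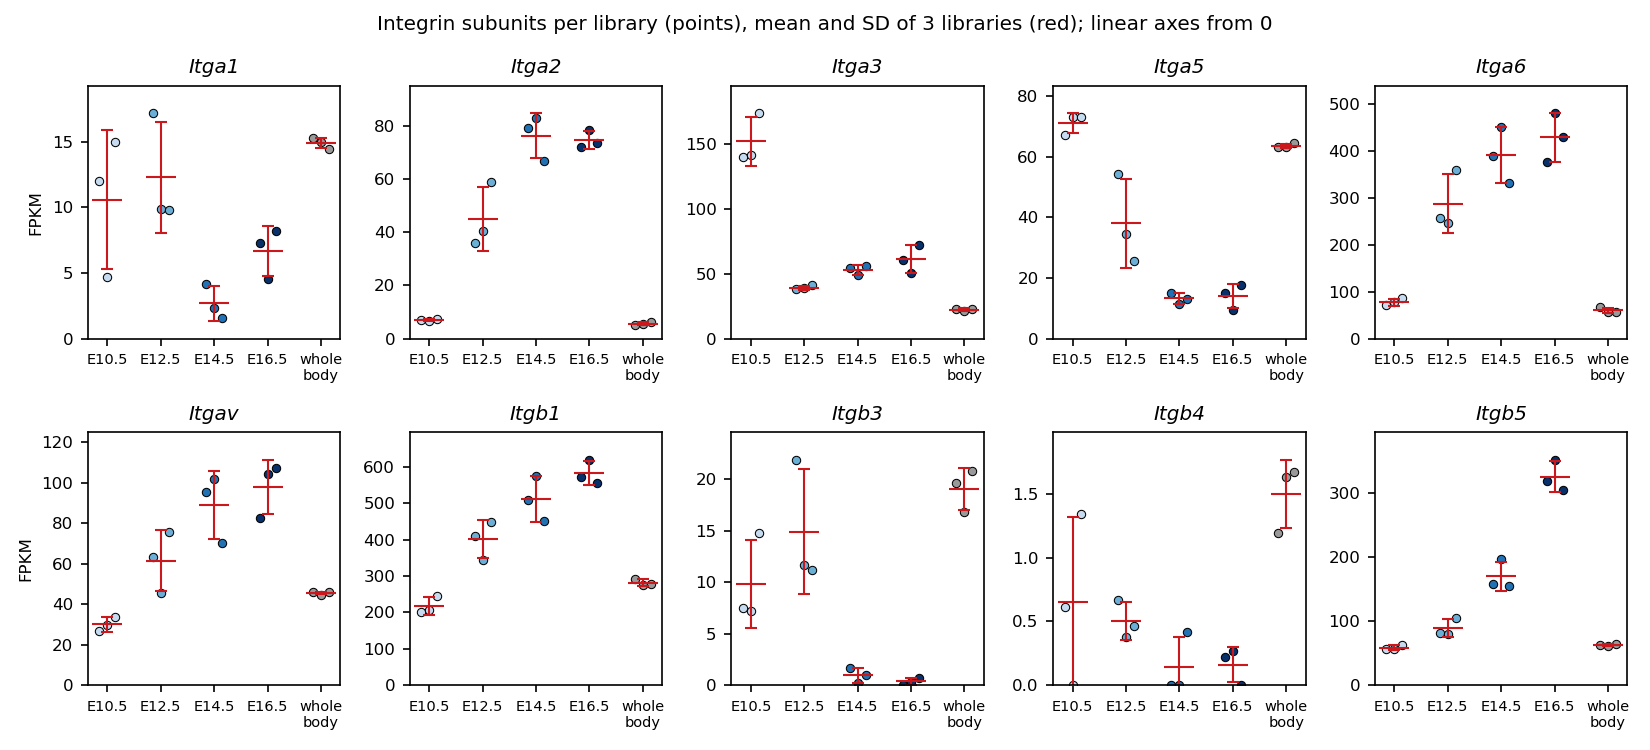
FPKM of the 10 integrin subunits in every library (points) by lens stage and whole body, with the mean and SD of 3 libraries in red, on linear axes that start at 0 and differ between panels. Itga6 climbed from 70.52 to 85.65 FPKM at E10.5 to between 377.62 and 481.37 at E16.5, while Itgb3 went from 7.24 to 14.76 down to between 0 and 0.73.

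Over the 4 lens stages, 9 of the 10 subunits differed by limma's moderated F test, all but Itgb4 (adjusted p = 0.181), beside 77.3% of all genes tested. From E10.5 to E12.5, 5 subunits rose and 2 fell, while 29.5% of all genes rose and 26.0% fell. From E12.5 to E14.5, 6 rose and 3 fell, beside 21.2% and 22.4% of all genes. From E14.5 to E16.5 Itgb5 alone of the 10 rose and none fell, beside 5.97% and 4.03% of all genes. Over the whole course from E10.5 to E16.5, 5 rose and 3 fell, beside 37.2% and 36.7%. The median log2 fold change of the 10 subunits was 0.57, 0.38 and 0.14 over the 3 steps between neighbouring stages, and that of all genes was 0.01, -0.01 and 0.01.

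Against whole body, 2 subunits were higher and 4 lower in the E10.5 lens, where 24.6% of all genes were higher and 31.2% lower. At E12.5 6 were higher and 2 lower, beside 32.3% and 37.1% of all genes. At E14.5 6 were higher and 4 lower, beside 35.7% and 42.6%, and at E16.5 the counts were the same, beside 36.8% and 43.4%. These 4 comparisons share the whole-body libraries, and Itgb4, among the lower ones each time, was tested only because whole body reached 1 FPKM. Itga3 was the only subunit with a fold change above 2 on the log2 scale at E10.5, and Itga2, Itga6, Itga3, Itgav, Itgb1 and Itgb5 were the 6 higher ones at each of the 3 later stages. Of these, Itgav and Itga3 lost their E12.5 calls under alternatives given with each gene.

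**Figure D2:**
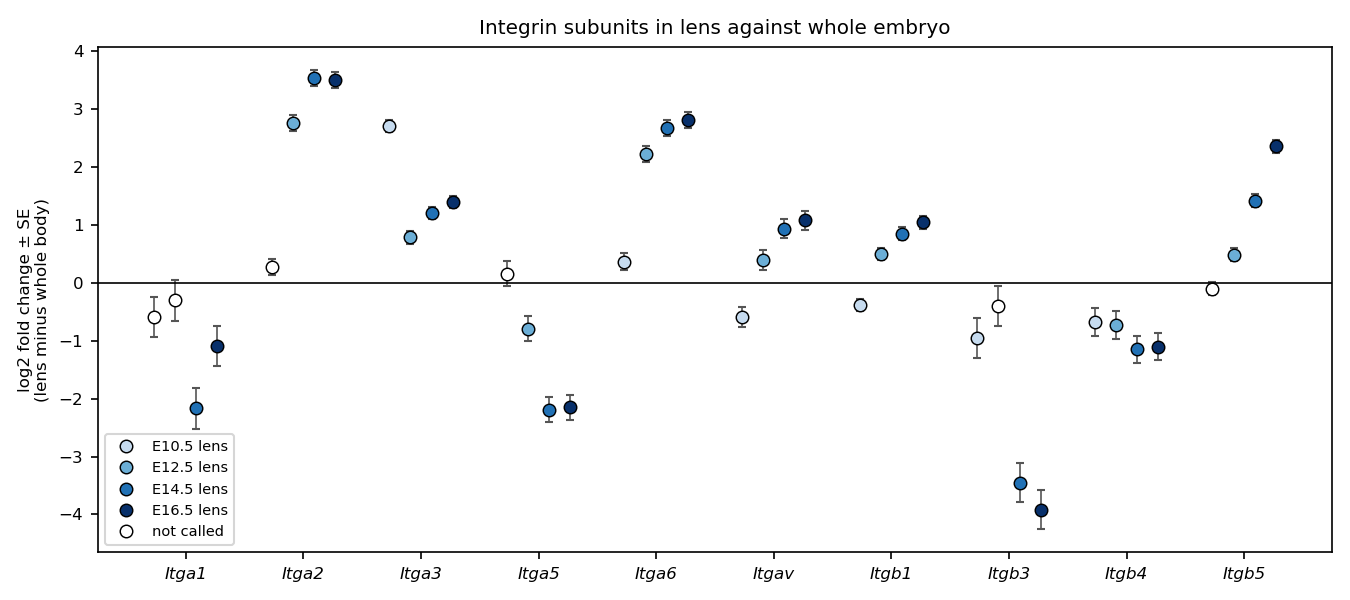
Log2 fold change ± SE of each subunit in lens minus whole body at the 4 lens stages, on log2(FPKM + 1), with open points where limma made no call. Itga2 and Itga6 lie near 0 at E10.5 (0.27 and 0.37) and above 2 from E12.5 on, while Itgb3 drops to -3.45 and -3.92 at E14.5 and E16.5.

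Itga6 (chr2:71745616-71858416, plus strand, mm10) encodes alpha6, which binds laminin in alpha6beta1 and alpha6beta4. Its 3 libraries gave 70.52, 77.31 and 85.65 FPKM at E10.5 and 258.18, 246.23 and 359.68 at E12.5. They gave 390.74, 451.67 and 332.25 at E14.5, 377.62, 481.37 and 429.66 at E16.5, and 66.83, 57.56 and 55.56 in whole body. The E10.5 lens lay just above whole body, and every later lens library was at least 246.23 FPKM, with no overlap with either. Itga6 rose by 1.86 ± 0.14 on the log2 scale from E10.5 to E12.5 (adjusted p = 8.93e-08) and stood 2.82 ± 0.14 above whole body at E16.5 (adjusted p = 1.34e-10). The further step to E14.5 was 0.45 ± 0.14 (adjusted p = 0.0205), with overlapping libraries, and this call was lost when any of E12.5 replicate 1, E12.5 replicate 2 or E14.5 replicate 2 was left out (0.34 to 0.38). It was also lost after totals without crystallins were equalized (0.20, adjusted p = 0.182) and after quantile normalization (0.15, adjusted p = 0.309). The difference of 0.37 from whole body at E10.5 (adjusted p = 0.0415) was also lost under several alternatives, with a replicate block among them (adjusted p = 0.0536). From E14.5 to E16.5 Itga6 changed by 0.14 ± 0.14 (adjusted p = 0.634).

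Alpha6 exists with 2 cytoplasmic tails that differ by 1 alternative exon, and the assembled Itga6 transcripts were sorted by their nearest reference entry with or without it. The exon is exon 25 of 26 in Itga6-201 of GENCODE vM21, at chr2:71853534-71853663 (130 bases), and is absent from Itga6-202. Including it gives the tail known as alpha6A, whose coding part in this exon is 105 bases long (chr2:71853534-71853638). Skipping it gives alpha6B, with a tail of 159 coding bases in exon 26 (chr2:71855854-71856012). Both are shown here 5′ to 3′ on the plus strand, because the estimated share of transcripts nearest to each entry differed between the E10.5 and E12.5 libraries. These shares did not overlap, but the permutation test on them could not give a p under 0.1. The capitals mark the opening 18 bases of each, 6 codons that encode the same residues in both tails and of which 14 bases are identical.
Itga6 exon of alpha6A: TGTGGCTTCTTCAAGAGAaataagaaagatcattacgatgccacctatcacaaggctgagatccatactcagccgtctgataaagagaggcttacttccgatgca
Itga6 last coding part of alpha6B: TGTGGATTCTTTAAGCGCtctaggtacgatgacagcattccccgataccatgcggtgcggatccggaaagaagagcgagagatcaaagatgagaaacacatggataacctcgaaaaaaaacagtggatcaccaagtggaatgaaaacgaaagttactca

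Of 9 assembled Itga6 transcripts, 4 were nearest to Itga6-201, 2 were full matches of Itga6-202 and 3 were nearest to other entries. In the E10.5 lens, transcripts nearest Itga6-201 made up 46.4%, 39.1% and 31.3% of the FPKM of these 2 kinds. In the E12.5 lens they made up 78.2%, 83.9% and 81.8%, at E14.5 80.4%, 88.8% and 96.7%, and at E16.5 83.2%, 92.5% and 89.3%. Whole body had 35.9%, 26.6% and 45.6%. Counted this way, the form nearest alpha6A was the smaller one in all 3 E10.5 and all 3 whole-body libraries and the larger one in all 9 later lens libraries, an order that does not hold at E12.5 when full matches alone are counted. The means were 38.9% ± 7.6 (SD, n = 3) at E10.5 and 81.3% ± 2.9 at E12.5, without overlap, and the exact permutation test gave p = 0.1 for each later stage against E10.5 (two-sided, Benjamini-Hochberg adjusted p = 0.133 over 4 comparisons), the smallest p that 3 against 3 libraries allow. Whole body did not separate from the E10.5 lens (exact permutation p = 0.7).

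The difference in estimated share came with a difference in amount. FPKM nearest Itga6-201 was 27.61, 26.27 and 22.61 at E10.5 and 189.04, 189.64 and 287.08 at E12.5. FPKM of Itga6-202 was 31.9, 40.95 and 49.69 at E10.5 and 52.6, 36.52 and 64.03 at E12.5, with overlapping libraries. The most abundant transcript nearest Itga6-201, 5983 bases long and a variant rather than a full match, is 130 bases longer than a full match of Itga6-202 of 5853 bases. Other pairs of the 2 kinds differed by 18 to 2231 bases, and the full matches of 4310 and 4156 bases by 154. Length therefore does not show that the variant holds the exon. The 5983-base transcript rose by 2.81 ± 0.33 (limma over 46439 transcripts, adjusted p = 8.02e-05), and the full match of Itga6-201 of 4310 bases rose by 4.78 ± 0.67 (adjusted p = 0.000305). At the transcript level 17.8% of transcripts changed in this step. The 2 full matches of Itga6-202 changed by 1.32 ± 0.57 and -4.30 ± 1.42 (adjusted p = 0.14 and 0.0549). Counting full matches of Itga6-201 alone, the share was 0% in the 3 E10.5 libraries, 35.1%, 38.0% and 31.9% at E12.5, 53.5% to 86.3% at E14.5 and 50.3% to 75.5% at E16.5, and in whole body 27.4%, 15.3% and 0%. By this count Itga6-201 was still the smaller form in all 3 E12.5 libraries and the larger one only at E14.5 and E16.5. The exon was assigned through the nearest reference entry, since the exons of the assembled variants are not listed. Cufflinks splits reads among similar transcripts by estimation, and the split swung between replicates (for the 5853-base transcript 51.11, 0.17 and 0.07 FPKM at E14.5).

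**Figure D3:**
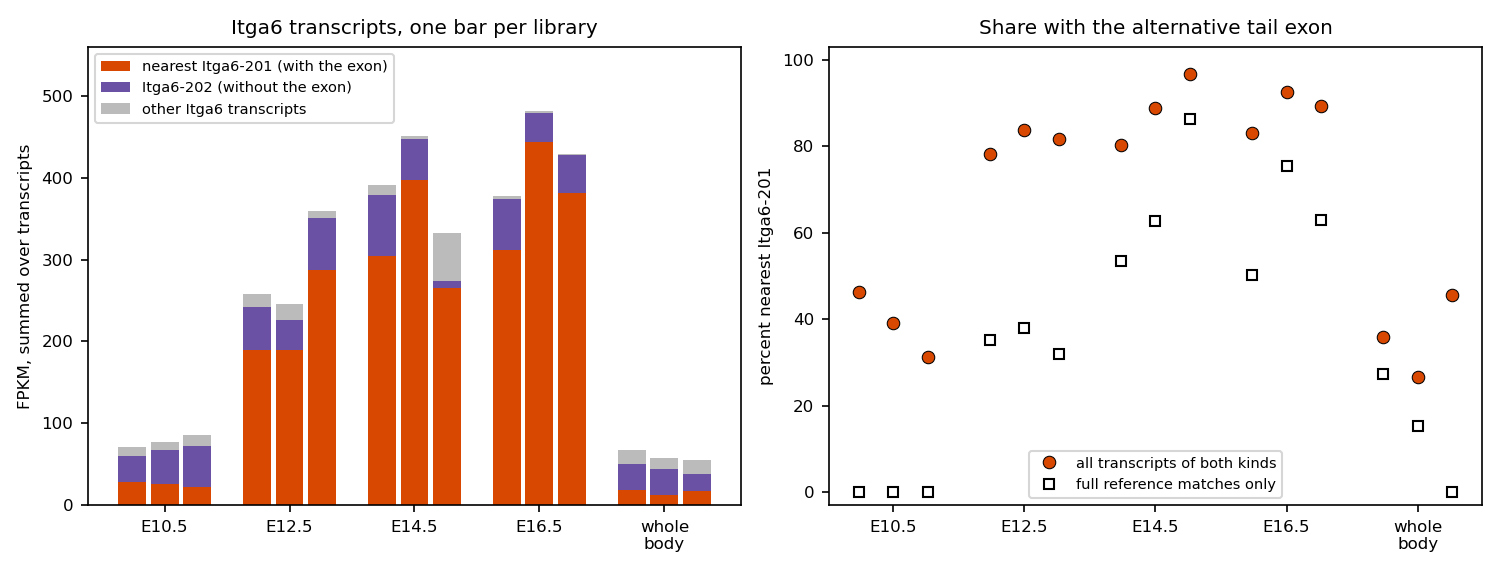
Left, FPKM of Itga6 transcripts in each library, stacked by the nearest reference entry. Right, the percent of the 2 kinds that is nearest Itga6-201, with all transcripts (circles) and with full matches alone (squares). The circles lie between 31.3% and 46.4% at E10.5 and between 78.2% and 96.7% in the later lens libraries, and the squares at 0% at E10.5 and between 31.9% and 38.0% at E12.5.

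Itga3 (chr11:95044474-95076801, minus strand) encodes alpha3, a laminin receptor chain of many epithelia that pairs with beta1. It had 140.25, 141.91 and 173.94 FPKM in the E10.5 lens and 37.88, 39.01 and 41.01 at E12.5. It had 54.41, 48.63 and 55.72 at E14.5, 60.66, 50.42 and 72.14 at E16.5, and 22.58, 21.16 and 23.08 in whole body. The E10.5 lens was far above all other groups, and each lens library at every stage was above each whole-body library. Itga3 fell by 1.92 on the log2 scale from E10.5 to E12.5 (SE 0.11, adjusted p = 4.19e-09). It then rose by 0.42 ± 0.11 to E14.5 (adjusted p = 0.00765), a call lost when library totals without crystallins were equalized (0.17, adjusted p = 0.246) or the highest transcript was used (0.26, adjusted p = 0.466). With full-match transcripts alone, the E12.5 excess over whole body was 0.34 with adjusted p = 0.197, in place of 0.79. At E16.5 it was -1.31 ± 0.11 from E10.5 (adjusted p = 6.05e-08) and 1.40 ± 0.11 above whole body. The ratio of Itga6 to Itga3 was 0.503, 0.545 and 0.492 at E10.5, 6.82, 6.31 and 8.77 at E12.5, and 2.96, 2.72 and 2.41 in whole body. The laminin-binding alpha chain with more RNA was therefore Itga3 in all 3 E10.5 libraries and Itga6 in the 12 others.

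Of 8 surface epithelium markers tested from a list of 9, 5 fell in the same step as Itga3, beside 26.0% of all genes. Their summed FPKM was 288.07 to 377.56 at E10.5, 17.15 to 49.07 at E12.5 and 1.68 to 3.57 at the older stages. Epcam, an adhesion molecule of simple epithelia, went from a mean of 89.07 FPKM at E10.5 to 6.9 at E12.5, and the keratins Krt8 and Krt18 from means of 109.17 and 101.52 to 5.8 and 13.61. Neural retina markers fell in that step too, 6 of 10, and their sum went from between 1102.53 and 1301.04 FPKM to between 306.03 and 507.45, as did 5 of 10 endothelial markers. The mean of Itga3 at E16.5 was 61.07 ± 10.87 FPKM (SD, n = 3). Of 8 lens epithelium markers, 5 fell and 2 rose from E10.5 to E12.5 (median -0.5), beside 26.0% and 29.5% of all genes. The part of lens epithelium, surface epithelium, retina or endothelial cells in the level of Itga3 was not tested at any stage.

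Itgb1 (chr8:128685654-128733200, plus strand) encodes beta1, the partner of the largest number of alpha chains, and was the most abundant subunit in all 5 groups. It had 201.21, 205.14 and 245.62 FPKM at E10.5, 410.7, 343.96 and 448.58 at E12.5, and 507.57, 575.32 and 450.02 at E14.5. At E16.5 it had 571.85, 619.91 and 556.21, and in whole body 292.24, 274.48 and 276.83. The E10.5 lens was below whole body in all 3 libraries (-0.38 ± 0.11, adjusted p = 0.0092) and every later lens library above it (0.50, 0.85 and 1.05 at E12.5, E14.5 and E16.5). From E10.5 to E12.5 the rise was 0.88 ± 0.11 (adjusted p = 1.03e-05). The step of 0.35 to E14.5 (adjusted p = 0.0181) was not called after totals without crystallins were equalized (0.10, adjusted p = 0.38) or after quantile normalization (0.04), nor without E12.5 replicate 2 (0.24) or E14.5 replicate 2 (0.26). Nearly all Itgb1 RNA was of Itgb1-201, between 93.2% and 96.9% at E10.5 and at least 99.7% in the later lens libraries. The remainder at E10.5 was Itgb1-202, annotated as a target of nonsense-mediated decay, with 7.25, 14.01 and 7.59 FPKM.

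Itgb4 (chr11:115974709-116008412, plus strand) encodes beta4, which pairs with alpha6 alone and anchors hemidesmosomes of skin and other stratified epithelia. It was at 0.61, 0 and 1.34 FPKM at E10.5, and no later lens library passed 0.67. Whole body had 1.19, 1.63 and 1.67. A single lens library and the 3 whole-body libraries reached 1 FPKM, so Itgb4 was tested only through the group where it is high, and the lower calls at all 4 stages (-0.68 to -1.15) are a description. Quantile normalization ended all 4 (-0.01 to -0.21), and a pseudocount of 0.1 those at E10.5 and E12.5. The E10.5 call was also lost without E10.5 replicate 1 or 2 or whole-body replicate 2 or 3 (-0.36, adjusted p = 0.161, without E10.5 replicate 2). Without that library E16.5 was called lower than E10.5 (-0.75, adjusted p = 0.00473, against -0.43). At E16.5 its partner Itga6 was at 429.55 FPKM and Itgb4 at 0.16.

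The hemidesmosome genes did not move as a block. Of 7 tested of a list of 8, 3 rose and 2 fell from E10.5 to E16.5, with a median of -0.45, beside 37.2% and 36.7% of all genes and a median of -0.01. Plec, the plectin linker gene, had 42.43, 40.68 and 56.02 FPKM at E10.5 and 428.58, 507.59 and 473.73 at E16.5 (3.32 ± 0.14, adjusted p = 3.85e-11). Dst, which encodes dystonin, rose from a mean of 63.1 to 498.02 FPKM (3.0 ± 0.25, adjusted p = 3.6e-08). Plectin and dystonin also have forms that bind actin, microtubules or intermediate filaments outside hemidesmosomes. Krt5, a keratin of basal stratified epithelium, was at most 2.0 FPKM in every lens library and 11.34 to 13.22 in whole body.

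Itga2 (chr13:114833081-114932100, minus strand) encodes alpha2, a collagen and laminin receptor chain that pairs with beta1. It had 7.1, 6.65 and 7.24 FPKM at E10.5 and 35.77, 40.5 and 58.67 at E12.5. It had 79.21, 82.79 and 66.68 at E14.5, 71.83, 78.51 and 73.57 at E16.5, and 5.13, 5.43 and 6.34 in whole body. The E10.5 lens lay just above whole body without a call (0.27 ± 0.14, adjusted p = 0.125), and all 9 later lens libraries were at 35.77 FPKM or more. The rise from E10.5 to E12.5 was 2.49 ± 0.14 (adjusted p = 3.92e-09), the largest rise of the 10 subunits in that step, followed by 0.77 ± 0.14 to E14.5 (adjusted p = 0.00061). With the highest transcript of each symbol in place of the sum, the step to E14.5 was 0.64 with adjusted p = 0.598. All assembled Itga2 transcripts were variants rather than full matches, so the alternative with full matches alone did not include this gene. At E16.5 Itga2 stood 3.51 ± 0.14 above whole body (adjusted p = 1.19e-11), the highest of the 10 at that stage.

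Itga1 (chr13:114953096-115101964, minus strand) lies beside Itga2 and encodes alpha1, a collagen receptor chain found on mesenchyme, vessels and smooth muscle. Its values scattered more: 12.04, 4.69 and 14.98 FPKM at E10.5, 17.18, 9.89 and 9.76 at E12.5, and 4.13, 2.32 and 1.56 at E14.5. At E16.5 it had 7.27, 4.5 and 8.19, and in whole body 15.25, 14.97 and 14.45. No library of E14.5 or E16.5 reached the lowest of whole body. Itga1 fell by 1.87 on the log2 scale from E12.5 to E14.5 (SE 0.35, adjusted p = 0.000625; with the highest transcript in place of the sum, -1.43 and adjusted p = 0.219). At E16.5 it was -1.09 ± 0.35 from whole body (adjusted p = 0.0106), and without E16.5 replicate 2 the value was -0.87 with adjusted p = 0.0535. The step of 1.09 from E14.5 to E16.5 missed the threshold (adjusted p = 0.0659) and passed it with a replicate block (adjusted p = 0.0379) or without E10.5 replicate 2, E12.5 replicate 1 or E14.5 replicate 1, but with the highest transcript it was -0.66. Without E10.5 replicate 2, the library at 4.69 FPKM, E16.5 was also lower than E10.5 (-0.95, adjusted p = 0.0121, against -0.50). Pelo lies within Itga1 on the same strand, at 18.51 to 35.14 FPKM, so reads of the shared stretch may be split between them, and an antisense gene also overlaps it, with no statement on whether strand was used in counting.

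Itga5 (chr15:103344286-103366763, minus strand) encodes alpha5, which with beta1 forms the main fibronectin receptor. It had 67.31, 72.96 and 73.08 FPKM at E10.5, 54.27, 34.44 and 25.53 at E12.5, and 15.17, 11.42 and 13.15 at E14.5. At E16.5 it had 14.86, 9.57 and 17.55, and in whole body 63.23, 63.31 and 64.41. The E10.5 lens was slightly above whole body without a call (0.16 ± 0.22, adjusted p = 0.578), and each later lens library was below it. Itga5 fell by 0.95 to E12.5 (SE 0.22, adjusted p = 0.00225) and by 1.40 to E14.5 (adjusted p = 0.000168), and then changed by 0.04 (adjusted p = 0.959).

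Fn1, the fibronectin gene, was looked up after the values of Itga5 were seen and is outside the naming rule. It had 652.52, 800.85 and 1343.53 FPKM at E10.5, 555.23, 270.55 and 296.71 at E12.5, and 61.46, 62.39 and 95.73 at E16.5. From E10.5 to E16.5 it fell by 3.62 on the log2 scale (SE 0.27, adjusted p = 1.14e-08), and Itga5 by 2.30 (SE 0.22, adjusted p = 2.23e-07). Receptor and ligand RNA were both lower in the older lens.

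Itgb3 (chr11:104608000-104670476, plus strand) encodes beta3, which pairs with alphav and, in platelets, with alphaIIb. It had 7.51, 7.24 and 14.76 FPKM at E10.5 and 21.93, 11.66 and 11.14 at E12.5. It had 1.68, 0.17 and 0.96 at E14.5, 0, 0.34 and 0.73 at E16.5, and 19.66, 16.82 and 20.79 in whole body. All 6 libraries of the older stages were below all 9 others. From E12.5 to E14.5 it changed by -3.05 ± 0.34 (adjusted p = 7.27e-06). At E16.5 Itgb3 was -3.92 ± 0.34 from whole body (adjusted p = 4.07e-08), the lowest fold change of the 10 subunits. The lower value at E10.5 (-0.95, adjusted p = 0.0255) lost its call without E10.5 replicate 1 or 2 or whole-body replicate 1 or 3 (-0.79 to -0.93). Without E10.5 replicate 3 the change of 0.56 from E10.5 to E12.5 became 0.86 and was called (adjusted p = 0.0479).

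Itga5, Itgb3 and Itga1 fell from E12.5 to E14.5, as did most markers of the mesenchyme around the lens. Markers of periocular mesenchyme, 10 tested of 11, summed to 382.86, 370.75 and 2823.95 FPKM at E10.5, 1213.14, 534.28 and 432.92 at E12.5, and between 179.59 and 240.77 at E14.5 and E16.5. Whole body had 1607.97 to 1765.45. Most of the sum in the older lens was Pdgfra (167.03 to 218.01 FPKM), a gene that lens epithelium also expresses, and Lum, a matrix gene of mesenchyme, was at 0 to 1.2 FPKM there. E10.5 replicate 3 and E12.5 replicate 1 had the highest mesenchyme sums of their stages, and the same libraries had the highest Itgb3 and Itga1. Itga5 was also highest in E12.5 replicate 1, but its 3 E10.5 libraries were alike. With these 2 libraries left out together, an alternative added after the data were seen, the change from E12.5 to E14.5 was -2.76 for Itgb3, -1.11 for Itga5 and -1.62 for Itga1 (adjusted p = 1.66e-05, 0.000757 and 0.00242). Itga1 did not follow the mesenchyme sum in all libraries, with 12.04 and 4.69 FPKM in E10.5 replicates 1 and 2, whose sums were alike. From E14.5 to E16.5 the mean of Itga1 went from 2.67 to 6.65 FPKM without a call, and no mesenchyme marker was called. E12.5 replicate 1 was not set apart by mesenchyme alone. Of its stage it also had the highest sums of endothelial (545.74 FPKM), macrophage (205.07), platelet (52.72) and erythroid (7714.38) markers. The same held for pigment cell (90.99) and neural retina (507.45) markers, but not for surface epithelium or muscle markers. Its lens fibre sum was the lowest of the stage (39641.79). The part of mesenchyme or of these other cells in the levels of Itga1, Itga5 and Itgb3 was not tested.

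Blood vessel and blood cell markers also fell from E12.5 to E14.5, but their courses before that step differed. From E10.5 to E12.5, 1 of 10 endothelial markers rose and 5 fell, and 4 of 6 platelet markers rose and none fell. In that step 1 of 11 macrophage markers rose and none fell, and 3 of 10 erythroid markers rose and 1 fell. Of all genes 29.5% rose and 26.0% fell. Endothelial markers summed to 559.84 to 629.32 FPKM at E10.5, 279.54 to 545.74 at E12.5 and 88.64 to 173.56 at the older stages. Platelet and megakaryocyte markers include Itga2b, which encodes the alphaIIb partner of beta3. They summed to 14.22 to 20.97 at E10.5, 22.53 to 52.72 at E12.5 and 2.14 to 5.79 at the older stages. Pf4, a platelet gene, had 19.67, 16.2 and 8.83 FPKM at E12.5 and at most 1.21 later. Macrophage markers summed to 130.94 to 161.85 at E10.5, 104.12 to 205.07 at E12.5 and 6.01 to 18.38 at the older stages. From E12.5 to E14.5, 9 of 10 mesenchyme, 9 of 10 endothelial, 11 of 11 macrophage, 5 of 6 platelet and 10 of 10 erythroid markers fell, in the step in which Itgb3, Itga5 and Itga1 fell and 22.4% of all genes did. So did 7 of 10 neural retina and 3 of 4 pigment cell markers. Erythroid markers summed to 2217.17 to 5070.81 FPKM at E10.5, 3440.37 to 7714.38 at E12.5 and 108.66 to 439.44 at the older stages. The part of any of these cells in the fall of these subunits was not tested.

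**Figure D4:**
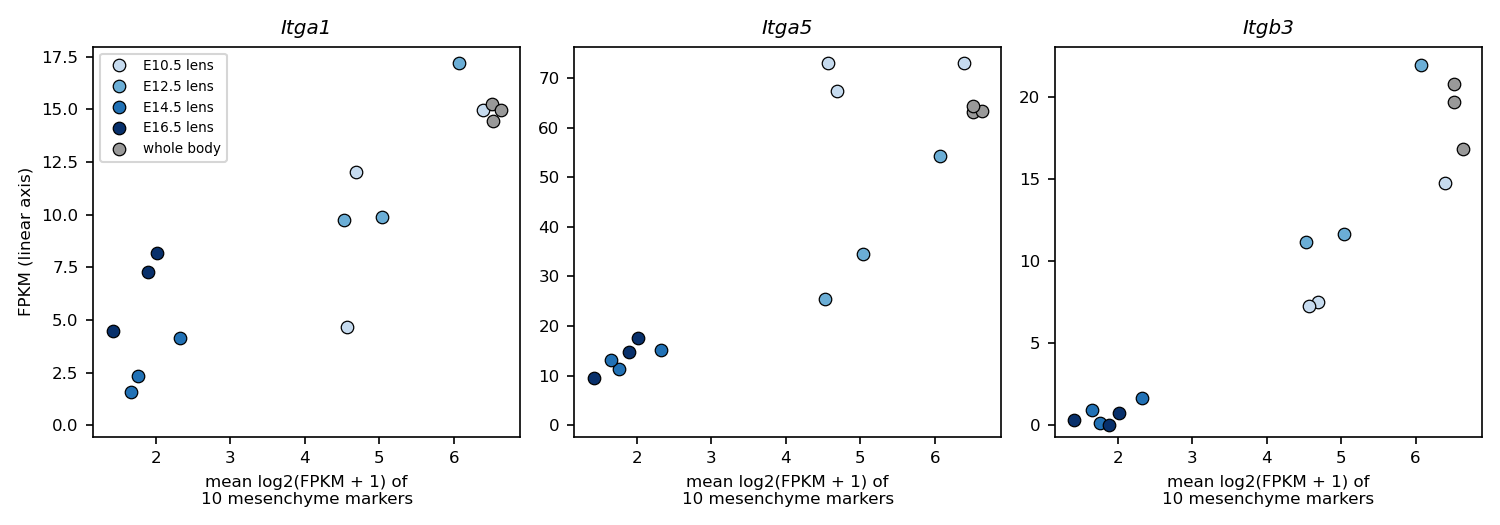
FPKM of Itga1, Itga5 and Itgb3 in each library against the mean log2(FPKM + 1) of 10 periocular mesenchyme markers, coloured by group. The 6 libraries of E14.5 and E16.5 lie at the lower left in all 3 panels, and within E12.5 the library with the most mesenchyme marker RNA is highest for all 3 genes. That library also has the highest endothelial, macrophage, platelet, erythroid, pigment cell and neural retina marker sums of its stage.

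Itgav (chr2:83724397-83806916, plus strand) encodes alphav, the shared alpha chain of the vitronectin receptors, which pairs with beta1, beta3, beta5 and others. It had 26.51, 29.77 and 33.62 FPKM at E10.5, 63.08, 45.61 and 75.71 at E12.5, and 95.57, 101.89 and 70.05 at E14.5. At E16.5 it had 82.64, 104.2 and 107.3, and in whole body 45.98, 44.67 and 45.83. The E10.5 lens was below whole body (-0.59 ± 0.17, adjusted p = 0.00792), the E12.5 lens overlapped with it, and the older lens was above it (1.08 ± 0.17 at E16.5, adjusted p = 2.86e-05). The E10.5 call was lost with the highest transcript in place of the sum (-0.03, adjusted p = 0.965). From E10.5 to E12.5 Itgav rose by 0.99 ± 0.17 (adjusted p = 0.000177). The difference of 0.40 from whole body at E12.5 (adjusted p = 0.0485) and the step of 0.54 to E14.5 (adjusted p = 0.0176) involved overlapping libraries. The call at E12.5 was lost when any of 10 libraries was left out (0.23 without E12.5 replicate 3), with a replicate block (adjusted p = 0.0617) and with equal totals without crystallins (0.21, adjusted p = 0.241). That of the step was lost without E12.5 replicate 2 (0.34) or E14.5 replicate 1 or 2, with equal totals without crystallins (0.29, adjusted p = 0.121), with the highest transcript, with full matches alone, and with only the 2 groups fitted.

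Itgb5 (chr16:33829665-33949338, plus strand) encodes beta5, which pairs with alphav. It had 55.96, 56.45 and 62.92 FPKM at E10.5, 82.03, 79.9 and 104.82 at E12.5, and 157.59, 196.6 and 155.05 at E14.5. At E16.5 it had 319.55, 352.42 and 305.56, and in whole body 62.85, 60.52 and 64.26. Each lens stage lay wholly above the one before it, and the E10.5 lens did not separate from whole body (-0.10 ± 0.11, adjusted p = 0.46). The 3 steps were 0.59, 0.93 and 0.94, each ± 0.11 (adjusted p = 0.0003, 1.09e-05 and 6.07e-05). The rise from E14.5 to E16.5 stayed called under every alternative but a 2-fold minimum, and ranged from 0.88 to 1.05 with a library left out. At E16.5 there were 3.87, 3.38 and 2.85 FPKM of Itgb5 for each FPKM of Itgav, against 1.3, 1.75 and 1.38 at E12.5 and 2.11, 1.9 and 1.87 at E10.5. Of the other beta chains that alphav pairs with, Itgb1 was at 582.66 FPKM at E16.5, Itgb8 at 11.54 and Itgb3 at 0.36.

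Expressed as shares, Itga3 was 43.56% of the summed FPKM of the 6 alpha chains at E10.5 and 8.23% at E12.5, while Itga6 went from 22.34% to 59.22%. Itga5 went from 20.5% to 8.13% and, at E14.5, to 2.15%. Whole body differed from all lens stages, with Itga5 at 30.05%, Itga6 at 28.27% and Itgav at 21.47%. Among the 4 beta chains Itgb1 was 75.94%, 79.33%, 74.95% and 64.11% over the lens stages, and Itgb5 was 20.49%, 17.6%, 24.89% and 35.83%. The summed FPKM of the 6 alpha chains was 348.51, 484.13, 625.79 and 683.95 over the 4 stages, and 211.92 in whole body. The FPKM of all transcripts together grew too, from between 713158 and 767151 per library at E10.5 to between 1419164 and 1629915 at E16.5. From E10.5 to E16.5 the growth of the alpha sum is therefore not a growth of its share of all FPKM. The summed FPKM of the 4 beta chains was 286.25, 505.41, 681.79 and 909.02 over the 4 stages, and 364.31 in whole body. From E10.5 to E16.5 it grew by a larger factor than all FPKM together. The shares of chains given here are of RNA, and they do not measure how chains pair in the membrane.

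**Figure D5:**
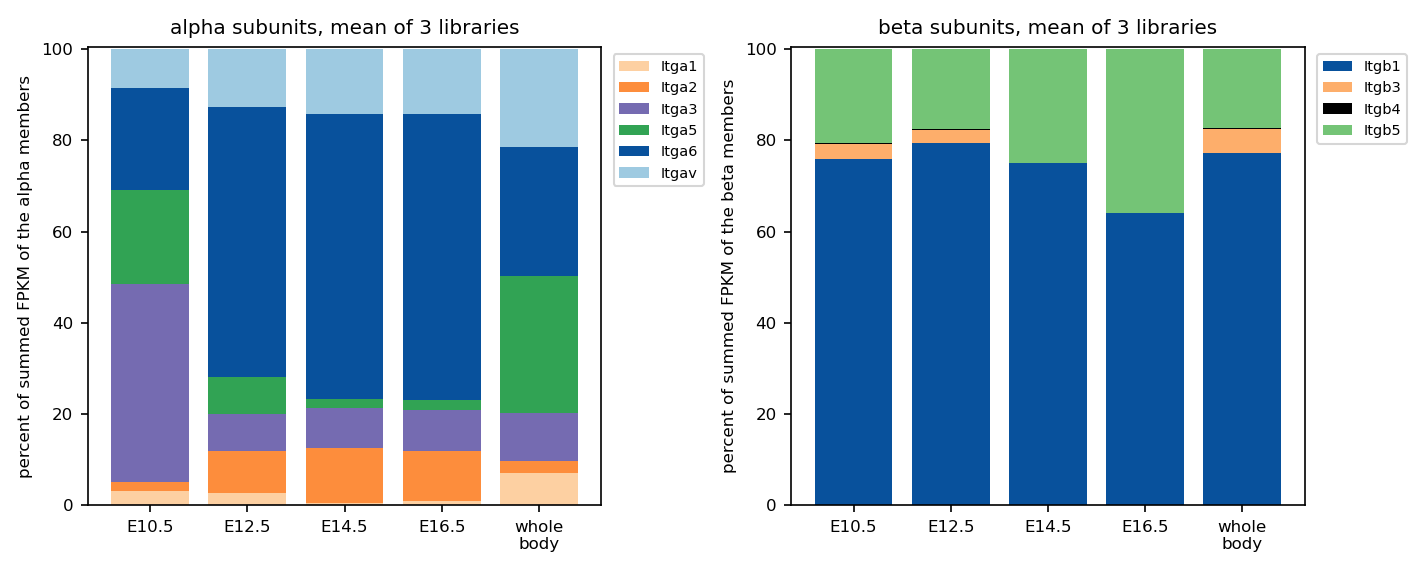
Share of each subunit in the summed FPKM of the 6 alpha (left) and 4 beta (right) chains, mean of 3 libraries per group, as stacked bars. Itga3 is the largest alpha band at E10.5 and Itga6 at the later lens stages, and the Itgb5 band widens to 35.83% at E16.5.

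In the order of levels, Itgb1 was highest in every group. Overlap below means that the ranges of 2 subunits over the 3 libraries met, which can occur with the same order within each library. At E10.5 Itga3 came next, then Itga6 and Itga5, whose ranges overlapped, and then Itgb5 and Itgav. Within each E10.5 library Itga6 was above Itga5 (ratios 1.05, 1.06 and 1.17). At E12.5 Itgav, Itga2, Itga3 and Itga5 formed a run of neighbours with overlapping ranges, below Itgb5 at 88.92 FPKM. Within each library of that stage Itgav was above Itga2, while the order of Itga2, Itga3 and Itga5 varied. At E12.5 and E14.5 the ranges of Itgb1 and Itga6 overlapped, but Itgb1 was the higher one within each library (Itga6 to Itgb1 0.629 to 0.802). At E16.5 Itgb1, Itga6, Itgb5 and Itgav each stood apart from the next in the order. Itga2 and Itga3 overlapped, with Itga2 the higher one within each library. In whole body Itga5, Itgb5 and Itga6 were neighbours with overlap, at 63.65, 62.54 and 59.98 FPKM. Within each library Itga5 was above Itgb5, while the place of Itga6 varied.

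Pairs of subunits followed each other across the 15 libraries to different degrees, described here by Pearson's r of log2(FPKM + 1). The libraries share their group and their processing, so r mainly reflects the 5 group means. Itga2 and Itga6 had r = 0.993, and Itgav and Itgb1 had r = 0.98. Itga3 followed none of the other subunits, with r between -0.381 and 0.061. Itga5 ran opposite to Itgb5 (-0.923) and Itgb1 (-0.921).

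Among 10990 genes, those with the most similar pattern to a subunit were named by the same measure. For Itga6 they were Atp6v0a2 (0.997) and Pdia6 (0.996), and for Itga2 Gpr160 (0.998) and Jazf1 (0.997). Gpr160, for example, was at 0.17 to 0.64 FPKM in whole body and E10.5 lens and at 59.82 to 80.36 in the older lens. Slc20a2 (0.992) was among the 2 genes nearest to Itgb5. Itgb1 was nearest to Adam10 (0.992) and Evi5 (0.99), and Itgav to Kidins220 (0.992) and Adam10 (0.986). Itga3 was nearest to Rab11fip1 (0.985) and Tfap2a (0.976), a transcription factor gene of surface ectoderm and lens epithelium. Itga5 was nearest to Dcbld1 (0.994) and the membrane protease gene Mmp14 (0.992), Itgb3 to Tspan18 (0.979) and Lum (0.976), and Itga1 to Slc40a1 (0.935) and Sparcl1 (0.902).

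Promoter sequence was available for 7 of the 10 subunits from RefSeq (GRCm38.p6), not for Itga6, Itgb3 and Itgb4. The 250 bases before the start of Itgb1, Itgav and Itgb5 are shown 5′ to 3′ on the coding strand because alphav pairs with both beta1 and beta5 and all 3 genes rose. Itga2, which rose in the same steps from E10.5 to E14.5, had no match in its window. The capitals mark the GC box hexamer GGGCGG, searched on both strands, so that a match on the other strand reads CCGCCC here.
Itgb1, chr8:128685404-128685653: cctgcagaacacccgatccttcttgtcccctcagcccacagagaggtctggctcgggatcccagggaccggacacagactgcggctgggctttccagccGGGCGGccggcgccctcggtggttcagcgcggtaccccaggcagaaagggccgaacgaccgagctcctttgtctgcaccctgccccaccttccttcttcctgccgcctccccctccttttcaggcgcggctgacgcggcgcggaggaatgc
Itgav, chr2:83724147-83724396: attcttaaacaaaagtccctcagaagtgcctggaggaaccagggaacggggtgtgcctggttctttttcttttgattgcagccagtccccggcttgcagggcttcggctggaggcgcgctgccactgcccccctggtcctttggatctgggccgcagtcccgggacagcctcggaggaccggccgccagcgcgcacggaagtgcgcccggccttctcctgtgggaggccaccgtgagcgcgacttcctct
Itgb5, chr16:33829415-33829664: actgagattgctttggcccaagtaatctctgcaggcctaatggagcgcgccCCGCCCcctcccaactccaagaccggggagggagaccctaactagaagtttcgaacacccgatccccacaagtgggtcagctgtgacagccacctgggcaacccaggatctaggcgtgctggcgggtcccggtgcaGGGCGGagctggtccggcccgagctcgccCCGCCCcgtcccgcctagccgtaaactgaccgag
Itgb5 had 3 such matches, Itgb1 had 1 and Itgav had 0, so the 3 windows did not share it. Of the subunits that fell in some step, Itga3 had 3 and 1 in its 2 windows, Itga5 had 2 and Itga1 had 0. Of 32851 promoters of the same length 32.7% held at least 1. The AP-1 site TGACTCA, present in 4.46% of all promoters, was in none of the 8 windows of the 7 subunits. The TATA element TATAAA (12.4% of all promoters) and the E-box CACGTG (6.02%) were in none of them either. All were searched on both strands. The GC content of the windows of Itgb1, Itgav and Itgb5 was 68.0%, 64.4% and 65.2%, beside a median of 52.4% over all promoters. Windows of the other subunits had 50.8% to 67.6%.

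The remaining integrin subunits fell more often than they rose over the whole course. Of a list of 17, 10 were tested and 7 had no row in the table. From E10.5 to E16.5 none rose and 7 fell, with a median of -0.83, beside 37.2% of all genes higher and 36.7% lower and a median of -0.01. Itga9, whose product pairs with beta1, was the one abundant gene of this list in the lens, with 52.0, 55.17 and 60.34 FPKM at E10.5 and 37.03, 45.21 and 45.81 at E16.5 (-0.38 ± 0.11, adjusted p = 0.00546). Itgb8, another partner of alphav, had 15.96, 18.75 and 17.02 FPKM at E10.5 and 30.11, 20.44 and 39.34 at E12.5, a rise of 0.72 ± 0.21 (adjusted p = 0.00925). It fell to 14.2, 14.92 and 10.3 at E14.5 and was at 40.19 to 43.4 in whole body. Itga4, best known from blood cells, and Itga8, from mesenchyme, were lower in lens than in whole body at each stage, at 3.60 and 1.37 FPKM at E16.5 beside 31.03 and 17.63.

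Among ligands, 33 of 33 were tested, and 16 rose and 13 fell from E10.5 to E16.5 (median -0.04), beside 37.2% and 36.7% of all genes (median -0.01). The highest fold changes were those of basement membrane collagens. Col4a6, a type IV collagen chain gene, had 51.29, 48.02 and 56.24 FPKM at E10.5 and 594.82, 664.73 and 604.84 at E16.5 (3.56 ± 0.17, adjusted p = 1.27e-10). Col4a2 rose from a mean of 263.74 to 2752.25 FPKM (3.41 ± 0.17, adjusted p = 1.28e-10). Nid1, which encodes a linker of laminin and type IV collagen, stood at 2647.92 FPKM at E16.5, beside 126.08 in whole body.

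Tnc, the tenascin-C gene, moved the other way, from 143.54, 144.15 and 220.08 FPKM at E10.5 to 12.23, 11.89 and 10.71 at E12.5 and 0.95, 1.13 and 2.62 at E16.5 (-6.08 ± 0.24 from E10.5 to E16.5, adjusted p = 1.26e-11). Vtn, the vitronectin gene, was at 15.27 to 16.77 FPKM in whole body and at most 2.19 in lens. From E14.5 to E16.5, the step in which Itgb5 rose, 6 ligands rose and none fell, beside 5.97% and 4.03% of all genes. Thbs1, which encodes thrombospondin-1, went from 61.76, 59.86 and 55.54 to 146.62, 127.61 and 153.63 FPKM (1.25 ± 0.16, adjusted p = 0.000195).

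Of the surface proteins that travel with integrins, 8 tested of 8, 7 rose and 1 fell from E10.5 to E16.5, with a median of 0.86, beside 37.2% and 36.7% of all genes and a median of -0.01. Slc3a2, the CD98 heavy chain gene, whose product binds beta tails, had 111.82, 113.27 and 115.79 FPKM at E10.5 and 692.77, 730.96 and 671.38 at E16.5 (2.61 ± 0.08, adjusted p = 1.3e-12). Cd82, a tetraspanin gene, rose from a mean of 3.06 to 22.59 FPKM (2.53 ± 0.16, adjusted p = 2.25e-09). Cd9, another tetraspanin gene, was the 1 that fell, from 15.47 to 3.05 FPKM (-2.03 ± 0.23, adjusted p = 1.06e-06).

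Of the adaptors and kinases that link integrin tails to actin, 36 were tested of 37, and 12 rose and 20 fell from E10.5 to E16.5 (median -0.28), beside 37.2% and 36.7% of all genes. Tln2, a talin gene, rose from 55.01 to 149.41 FPKM (1.43 ± 0.10, adjusted p = 1.05e-08), and Bcar1, the p130Cas scaffold gene, from 71.25 to 172.42 (1.26 ± 0.09, adjusted p = 4.63e-09). Fermt1, which encodes the kindlin of epithelia, had 14.06, 12.91 and 11.37 FPKM at E10.5 and 0.39, 0.24 and 0 at E12.5 (-3.52 ± 0.15, adjusted p = 1.94e-10). Its fall came in the same step as that of Itga3 and the surface epithelium markers, whose part was not tested. Parvb, a parvin gene, fell from 42.19 to 7.88 FPKM by E16.5 (-2.29 ± 0.44, adjusted p = 0.000252).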

How the data were processed

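Per the submitters' processing notes, the authors used Trimmomatic, TopHat2 (2.0.9), Cufflinks and Cuffnorm with build mm10, and the deposited table gives FPKM for each assembled transcript. Order, settings, strand use and read depth are not given in the sources used here. FPKM was summed over the transcripts of a symbol, without 172 transcripts of class x (antisense overlap). A gene was kept with 1 FPKM or more in 3 or more of 15 libraries, and 3 genes listed at 0 beside a replicate of 50 FPKM or more were left out, none of them an integrin.

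On log2(FPKM + 1), limma 3.58.1 (R 4.3.3) was fitted to the 15 libraries together, with a mean for each group (10 residual degrees of freedom), a trended prior and Benjamini-Hochberg adjustment, for 8 contrasts and an F test over the lens stages. It was tested on simulated data. Transcripts were fitted likewise. Same-numbered replicates correlated with r from -0.0946 to 0.2373 over 30 pairs, 4 of them over 0.1, so no replicate block was used. Positions are from GENCODE vM21. Alternatives covered the pseudocount, filter, scaling, transcript choice, replicate block, samples fitted, prior, fold minimum and leaving out each library.

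All 10 subunits are described. From each list of related genes, up to 2 called genes with the highest and up to 2 with the lowest fold change per contrast could be named, if their higher group averaged 10 FPKM or more and the libraries did not overlap, and the 2 genes with the highest r for each subunit that averaged 10 FPKM or more in a group, which leaves out Itgb4. For Itgb5, 1 of these 2 is not reported here. The members and lists were chosen with earlier results of these data known. Figures were drawn with matplotlib 3.10.9 and tables made with pandas 2.3.3 in Python 3.11.15.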

Additional observations from a re-analysis of the deposited data

Results flagged for a closer look

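For 3 subunits the lens lay on one side of whole body at E10.5 and on the other side later, without overlap, and limma called the difference between the stages. Both sides of each pair use the same whole-body libraries. Itga5 was above whole body at E10.5 and below it at E12.5 and E16.5, with differences from E10.5 of -0.95 and -2.30 on the log2 scale. The E10.5 excess itself was not called. Itgb1 was below whole body at E10.5 and above it at E12.5 and E16.5, with differences of 0.88 and 1.42. Itgav was below at E10.5 and above at E16.5, with a difference of 1.67.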

How the results depend on the processing

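Of 80 fold changes of the 10 subunits, 59 were called. Of these, 43 stayed called under every alternative run on them, which leaves out the 2-fold minimum and, for Itga2, full matches alone. Of 2072 alternative values 71 lost their call and 13 gained one. In 22 the direction turned, none of them of a called fold change and none called itself. From E14.5 to E16.5 these were, with the highest transcript, Itga1 (-0.66), Itga2 (0.40) and Itga3 (-0.0323), with full matches alone Itga1 (-0.0002) and Itga6 (-0.10), and with equal totals without crystallins Itga5 (-0.0343). Itga2 at E10.5 against whole body was -0.59 with the highest transcript, and Itgb4 from E10.5 to E12.5 was 0.34 with a pseudocount of 0.1 and 0.16 without E10.5 replicate 3 and E12.5 replicate 1. With 1 library left out, Itga1 and Itgb4 from E10.5 to E12.5 ranged from -0.17 to 0.58 and from -0.37 to 0.24, and from E14.5 to E16.5 Itga2 ranged from -0.12 to 0.0368, Itga5 from -0.13 to 0.28, Itgav from -0.0186 to 0.26 and Itgb4 from -0.0424 to 0.21. Leaving out crystallins and equalizing totals moved the median fold change of all genes by -0.40 and -0.47 at E14.5 and E16.5 against whole body, by -0.21 from E12.5 to E14.5 and by -0.38 from E10.5 to E16.5, so smaller rises of subunits are relative to that shift. With it 28.79% and 27.98% of the calls against whole body at E14.5 and E16.5 were higher, in place of 45.60% and 45.91%.

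With a 2-fold minimum, the genes called against whole body numbered 2921, 4170, 6074 and 6492 from E10.5 to E16.5, between neighbouring stages 2307, 1725 and 275, and from E10.5 to E16.5 5143. The subunits called were then 1 and 2 against whole body at E10.5 and E12.5, and 3, 3 and 0 between neighbouring stages. With the highest transcript of a symbol, 3968 and 697 genes were called from E12.5 to E14.5 and from E14.5 to E16.5, and 4 subunits in the former. From E14.5 to E16.5, fitting only the 2 groups called 521 genes and full reference matches alone 825. Full matches alone called 5 subunits at E12.5 against whole body, and Itga2, which has no full match, was not tested there. Equal totals without crystallins called 5 subunits from E12.5 to E14.5. Leaving out E10.5 replicate 3 and E12.5 replicate 1 together called 2 subunits from E14.5 to E16.5. The cause was not tested, except that a 2-fold minimum asks for larger changes and full matches alone leave out Itga2.

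With 1 library left out, genes called from E14.5 to E16.5 ranged from 811 to 1728 (1454 with all), with 871 without E14.5 replicate 3, 822 without E16.5 replicate 1 and 811 without E16.5 replicate 2. Subunits called at E10.5 against whole body ranged from 3 to 7 (3 without E10.5 replicate 2 or whole-body replicate 3), and from E14.5 to E16.5 from 1 to 2. The replicate numbers were not shown to pair the samples. With a replicate block, 2 subunits were called from E14.5 to E16.5, Itga1 being added to Itgb5, and Itga6 at E10.5 and Itgav at E12.5 lost their calls against whole body, which left 5 and 7 subunits in place of 6 and 8.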
